A study of Danio rerio with 12 samples.

Results

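Open chromatin of trunk osteoblasts was compared with that of the chondrocytes lying between the spinal segments of the same body region, in zebrafish at 15 days post fertilisation. The comparison rests on 6 of the 12 libraries of the study, 3 of trunk osteoblasts and 3 of trunk chondrocytes, assigned by their sample titles. The other 6 libraries, 3 of head osteoblasts and 3 of head chondrocytes, took no part in choosing regions and serve as a second set of samples. They did enter the choice of the 100 kb windows described below. Every fish was wild type and carried 3 transgenes, entpd5a:Gal4FF, UAS:GFP and R2col2a1a:mCherry. The labels call the trunk osteoblasts non-classical. Osteoblasts were sorted as GFP positive and mCherry negative cells, and chondrocytes as mCherry positive and GFP negative cells. Green label therefore depends on the entpd5a promoter and red label on an enhancer of col2a1a, and a cell that used both was in neither group. The labels name the libraries biological replicates and do not state how many fish went into each. Identity of the cells was not checked against marker genes, since no annotation of the genome build of these files was used here.

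Osteoblasts lay down and mineralise bone matrix, and chondrocytes secrete the type II collagen and proteoglycan matrix of cartilage. Cartilage fate depends on Sox9 and bone fate on Runx2 and Sp7, transcription factors that act at enhancers far from the genes they control. In the zebrafish trunk, mineralisation of the future vertebral bodies starts in segments along the notochord, where cells of the notochord sheath express entpd5a, an ectonucleotidase needed for mineralisation, and the cells between segments keep a cartilage-like character. ATAC-seq, the assay used, marks accessible DNA by the insertion of a transposase, and accessible sites away from promoters differ more between cell types than promoters do.

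Each library was a list of summits, the single base of strongest signal in each called peak, with the score that the authors' peak caller gave it. Trunk osteoblast lists held 20380, 24798 and 64219 summits in replicates 1 to 3, and trunk chondrocyte lists 27334, 55274 and 8407. Read depth is unknown, and list length stands in for it. Every library was therefore reduced to its strongest 8407 summits, the length of the shortest of the 6 lists. At that length the weakest summit kept had a score of 9.61, 13.6 and 65.1 in the osteoblast libraries and of 15.8, 74.5 and 1.31 in the chondrocyte libraries. Trunk chondrocyte replicate 3 was thus used down to its last summit, while the other libraries gave between 13.1% and 41.3% of their lists. For replicate 1 of both trunk groups and of head osteoblasts the labels report a loss of files and a BAM file from a later processing step in place of the reads.

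Summits of the 6 reduced lists were joined into regions wherever neighbours lay within 250 bp, which gave 16456 regions with a median width of 22 bp. A region is called open in a library when it holds a summit of that library, so a region that is not open had no summit among those used and need not be closed chromatin. All 6 libraries held 3368 regions. Every trunk osteoblast library and no trunk chondrocyte library held 891 regions (5.41% of all regions), referred to here as osteoblast-only. Every trunk chondrocyte library and no trunk osteoblast library held 1212 regions (7.37%), referred to as chondrocyte-only. These counts are a description and carry no test. Without trunk chondrocyte replicate 3 and at the same list length, 1984 regions were chondrocyte-only and 1097 osteoblast-only.

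**Figure D1:**
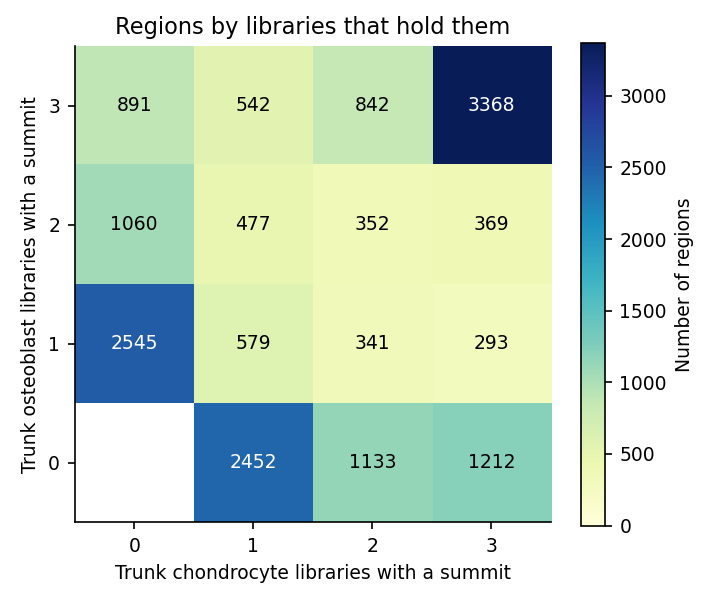
Number of regions by how many trunk osteoblast libraries (vertical axis, 0 to 3) and trunk chondrocyte libraries (horizontal axis, 0 to 3) held a summit in them, at 8407 summits per library, with colour giving the same number. All 6 libraries held 3368 regions, the 3 osteoblast libraries alone 891 and the 3 chondrocyte libraries alone 1212. Regions of a single library were more numerous than either separating set, with 2545 in 1 osteoblast library and 2452 in 1 chondrocyte library.

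Many regions were found in a single library, 2545 of them in 1 osteoblast library alone and 2452 in 1 chondrocyte library alone. The 3 osteoblast libraries and 1 chondrocyte library held 542 regions, and the 3 chondrocyte libraries and 1 osteoblast library held 293. The 3 osteoblast libraries and 2 chondrocyte libraries held 842 regions, more than the 369 of the opposite pattern. Of these 842, 522 lacked a summit of trunk chondrocyte replicate 3, the shortest list, against 198 for replicate 1 and 122 for replicate 2.

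Libraries of one cell type shared more of their regions with each other than with the other cell type. The Jaccard index, the regions shared by a pair of libraries divided by all regions of that pair, lay between 0.589 and 0.63 for the 3 pairs of trunk osteoblast libraries. It was 0.698 for chondrocyte replicates 1 and 2 and 0.522 and 0.525 for the pairs that involve replicate 3. Between the cell types the 9 pairs lay between 0.375 and 0.44, so every pair within a cell type exceeded every pair between them. The mean within cell types exceeded the mean between them by 0.191, with an exact one-sided permutation p of 0.1, the smallest that 3 against 3 libraries allow. With full lists the excess was 0.0152 (exact one-sided permutation p = 0.4).

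Ranks of the separating regions within their own lists are given as a description, since the rule used these ranks. The median rank of chondrocyte-only regions, where rank 1 is the strongest summit of a library, was 3376, 3386 and 4350 in trunk chondrocyte replicates 1 to 3. For osteoblast-only regions it was 5092, 4899 and 5125 in trunk osteoblast replicates 1 to 3. Regions held by all 6 libraries had medians between 1888 and 1928 in osteoblasts and between 2186 and 2465 in chondrocytes. A rule that asks for a summit among the strongest of 6 lists favours strong sites. A rule that asks for absence from 3 of them favours weaker ones. How much of the order between shared and separating regions comes from these rules was not tested. The rules for the 2 sets were mirrored, but the libraries were not alike. Every chondrocyte-only region had to be in trunk chondrocyte replicate 3, a list used down to a score of 1.31. Osteoblast-only regions had only to be absent from it. Why chondrocyte-only regions ranked higher was not tested. Chondrocyte-only regions were also the more numerous set at each of the 8 list lengths from 1000 to 8407. At 1000 summits per library 70 regions were osteoblast-only and 97 chondrocyte-only, at 4000 summits 396 and 583. The chondrocyte-only share of all regions stayed between 7.37% and 7.74% from 3000 summits on, and the osteoblast-only share between 4.83% and 5.41%. The order turned with full lists of unequal length, which gave 941 osteoblast-only and 390 chondrocyte-only regions.

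Most separating regions had a summit in at least 1 full list of the other trunk group. Of the 891 osteoblast-only regions, 600 (67.3%) had a weaker summit in the full list of trunk chondrocyte replicate 1 and 817 (91.7%) in that of replicate 2, at median ranks of 14436 and 15607. The full list of replicate 3 is the reduced list and held none. Of the 1212 chondrocyte-only regions, 425 (35.1%), 492 (40.6%) and 987 (81.4%) had a summit in the full lists of trunk osteoblast replicates 1 to 3. For reference, trunk chondrocyte replicates 1 and 2 held 83.4% and 91.4% of all 16456 regions, and trunk osteoblast replicates 1 to 3 held 73.1%, 78.1% and 89.3%. The share in chondrocyte replicate 2 was thus about that of all regions, and the others were lower. The rule excluded regions among the strongest 8407 summits of these lists, and how much it lowered the shares was not tested. No summit was found in any of the 3 full lists of the other trunk group for 55 osteoblast-only and 205 chondrocyte-only regions, head lists not counted. Close to the list limit, 57 osteoblast-only regions had a chondrocyte summit within the 500 ranks after the cutoff, and 136 had their own weakest summit within the last 500 ranks before it. The same counts were 54 and 103 for chondrocyte-only regions.

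The head libraries, which had no part in choosing the regions, divided them by cell type in the same way. At 8407 summits per library, head osteoblast libraries held 64.5%, 70.9% and 69.4% of the trunk osteoblast-only regions, and head chondrocyte libraries 11.6%, 13% and 20.5%. The means were 68.3% ± 3.33 and 15% ± 4.82 (SD, n = 3), a difference of 53.2 percentage points (exact two-sided permutation p = 0.1, the smallest possible with 3 against 3). For the trunk chondrocyte-only regions the order was the opposite, with 82.5%, 82% and 71.9% in head chondrocyte libraries and 4.29%, 4.87% and 4.13% in head osteoblast libraries. Here the means were 78.8% ± 5.96 and 4.43% ± 0.39 (SD, n = 3; exact two-sided permutation p = 0.1). The head groups did not overlap for either set. Of all 16456 regions, for reference, head osteoblast libraries held 45.2% ± 0.593 and head chondrocyte libraries 46.8% ± 0.286. There too the head groups did not overlap (exact two-sided permutation p = 0.1), so neither that nor the p marks the 2 sets. The sets stand apart by the size of the difference, which was -1.59 points over all regions.

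**Figure D2:**
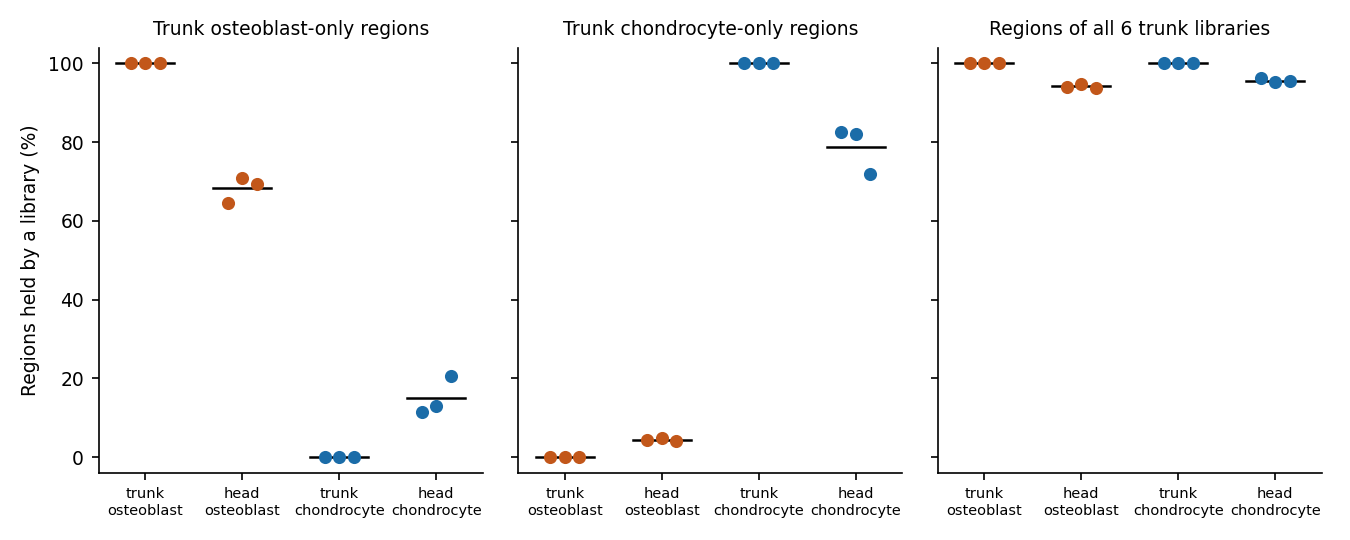
Percentage of trunk osteoblast-only (left), trunk chondrocyte-only (middle) and commonly open regions (right) that each of the 12 libraries held among its strongest 8407 summits, with 1 point per library, horizontal lines at group means, orange for osteoblasts and blue for chondrocytes. The trunk groups are at 100% or 0% by construction. Head osteoblasts lie between 64.5% and 70.9% on the left and between 4.13% and 4.87% in the middle, and head chondrocytes between 11.6% and 20.5% and between 71.9% and 82.5%.

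The 2 sets differed in the share of regions that kept their pattern in the head. They also differed in strength. The median rank in their own trunk libraries was 3664 for chondrocyte-only and 5023 for osteoblast-only regions, so the latter lay closer to the list limit. How much of the difference in the head comes from strength was not tested. The share of all regions with each head pattern was not computed. Of the chondrocyte-only regions, 757 (62.5%) were open in all 3 head chondrocyte and no head osteoblast libraries, and 151 (12.5%) in no head library. Of the osteoblast-only regions, 337 (37.8%) were open in all 3 head osteoblast and no head chondrocyte libraries, and 165 (18.5%) in no head library. All 6 head libraries held 38 osteoblast-only and 15 chondrocyte-only regions. The pattern of the other cell type, all head chondrocyte and no head osteoblast libraries, occurred in 7 osteoblast-only regions, and its counterpart in 0 chondrocyte-only regions.

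With full lists the head difference shrank for both sets but kept its direction. Head osteoblasts then held 96% ± 2.46 and head chondrocytes 88% ± 4.15 of osteoblast-only regions. Of chondrocyte-only regions they held 73.6% ± 23 and 98.6% ± 1.03 (SD, n = 3). Of all 16456 regions, for reference, they held 84% ± 7.61 and 89.4% ± 2.11 (SD, n = 3). Head chondrocytes thus held osteoblast-only regions at about their share of all regions. In head osteoblasts the share of chondrocyte-only regions moved with list length, as the library of 28911 summits held 47.3% and those of 78652 and 60979 summits held 90% and 83.6%. Only 5 osteoblast-only regions and 1 chondrocyte-only region had no summit in the full list of any head library.

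A single separating region was in no full list of the other 3 groups. It lies on chromosome 17, 26604647 to 26604657 (GRCz11), and had ranks of 5803, 5302 and 3935 in the trunk osteoblast libraries. It was picked out after its values were seen. No chondrocyte-only region had that property (0 of 1212).

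Single regions are given as examples, and their trunk values follow from the rule that named them. Those named next had the lowest mean rank among separating regions with no summit of the other trunk cell type within 1000 bp in its full lists, a condition that 39 osteoblast-only and 172 chondrocyte-only regions on chromosomes met. The strongest osteoblast-only region, on chromosome 18, 48263599 to 48263601, had ranks of 1195, 1200 and 3408 in trunk osteoblasts and of 2075, 3156 and 1979 in head osteoblasts. Head chondrocytes had a summit there at ranks 29556, 31717 and 20495, far down their full lists. On chromosome 11, 25809757 to 25809760, trunk osteoblast ranks were 2345, 2467 and 1850 and head osteoblast ranks 4940, 4803 and 4590. In head chondrocytes that site appeared in replicate 1 alone, at rank 49985. In the head libraries, which the naming rule did not use, both sites were thus among the stronger summits of osteoblasts and weak or missing in chondrocytes.

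Other osteoblast-only regions had the same order. On chromosome 17, 45050854 to 45050939, ranks were 5210, 3747 and 1998 in trunk and 4472, 3230 and 2550 in head osteoblasts, and the only chondrocyte summit was at rank 77404 of head replicate 1. On chromosome 17, 51592886, the 3 trunk osteoblast summits fell on the same base, with ranks of 2741, 3984 and 2895. A different distribution was seen on chromosome 7, 26727055 to 26727056. Trunk osteoblasts had ranks of 4744, 4191 and 5008 there, and of the head libraries only osteoblast replicates 2 and 3 had a summit, at ranks 35203 and 38559. The site on chromosome 3, 14721226 to 14721366, with trunk ranks of 2625, 4163 and 4421, was also weaker in head osteoblasts, at ranks 17857, 11292 and 11706. Of the 10 named osteoblast-only regions, 7 were open in all 3 head osteoblast libraries at 8407 summits and 10 in no head chondrocyte library. Of the whole osteoblast-only set, 37.8% were open in all 3 head osteoblast and no head chondrocyte libraries.

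Chondrocyte-only regions were named by the same rule. Chromosome 13, 44860786 to 44860835, had ranks of 415, 425 and 1143 in trunk chondrocytes and of 250, 98 and 923 in head chondrocytes. Head osteoblasts had summits there at ranks 27549, 26779 and 27705. Chromosome 9, 8103441 to 8103453, had ranks of 661, 1283 and 694 in trunk and of 1196, 874 and 1383 in head chondrocytes. In head osteoblast libraries it was missing from replicate 1 and at ranks 37846 and 31761 in replicates 2 and 3. In the head, which the naming rule did not use, these sites were strong in every chondrocyte library.

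Chromosome 13, 39871148 to 39871168, and chromosome 2, 679037 to 679065, had the same distribution, with trunk chondrocyte ranks of 1015, 607 and 1483 for the first and of 1847, 760 and 940 for the second. Chromosome 7, 73018949 to 73018983, stood out for its head values. Its trunk chondrocyte ranks were 1104, 770 and 1911, its head chondrocyte ranks 5791, 3489 and 8126, and head osteoblasts had a summit in replicate 2 alone, at rank 72740. All 10 named chondrocyte-only regions were open in all 3 head chondrocyte libraries and in no head osteoblast library at 8407 summits. Of the whole chondrocyte-only set, 62.5% had that head pattern. The mean ranks of the named regions lay between 661 and 1427, and those of the 10 osteoblast-only ones between 1934 and 4648. The first 10 were taken from 172 candidates and the second from 39, so the ranges of the 2 selections cannot be compared.

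Separating regions were spread over all chromosomes. Osteoblast-only regions made up 42.4% of the 2103 separating regions. That share was lowest on chromosome 4, with 11 osteoblast-only and 43 chondrocyte-only regions (20.4%), and highest on chromosome 22, with 36 and 18 (66.7%). The median over the 25 chromosomes was 40.8%. No test was made of these differences.

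Chondrocyte-only regions lay closer together than osteoblast-only ones. The median distance to the nearest region of the same set was 155 kb for chondrocyte-only and 362 kb for osteoblast-only regions, and 131 (10.8%) and 57 (6.4%) had such a neighbour within 10 kb. The chondrocyte-only set is also the larger one, which by itself shortens distances. Sets of opposite direction were neighbours too, since 45 osteoblast-only regions (5.05%) had a chondrocyte-only region within 10 kb. Distance to the nearest region of all 6 libraries was alike, with a median of 74.4 kb for osteoblast-only and 74.2 kb for chondrocyte-only regions. In 100 kb windows, 37 held 3 or more chondrocyte-only regions (123 regions in all) and 10 held 3 or more osteoblast-only regions (33 regions).

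To test differences over replicates, open regions were counted per library in 100 kb windows and log2(regions + 0.5) was fitted with limma in a model of all 12 libraries with 4 group means. Windows entered when the mean over all 12 libraries, head included, was 1 region or more. Of 3503 windows, 455 (13%) differed between trunk osteoblasts and trunk chondrocytes at a Benjamini-Hochberg adjusted p of 0.05, 203 higher in osteoblasts and 252 higher in chondrocytes. In 485 of these windows the count was identical in the replicates of every group, so their residual variance was 0, which disturbs the estimate of the variance shared across windows. Without them, 520 of 3018 windows (17.2%) passed, 237 higher in osteoblasts (7.85%) and 283 higher in chondrocytes (9.38%), and 385 windows passed in both fits. With the replicate number found in the peak names as a block, 302 of the 3018 windows passed, 134 higher in osteoblasts and 168 higher in chondrocytes, and 255 of the 3503. The 520 became 296 with libraries described without a loss of files and 323 with full lists and list length as a covariate. The count was 803 with no filter on low values and 813 without trunk chondrocyte replicate 3 with longer lists. Filter and list length also change how many windows are tested, so these counts are not of the same 3018 windows. All window values that follow come from the fit without constant windows, a choice made after the values were seen.

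The 6 trunk libraries fell into 2 ranges without overlap in 462 of the 520 windows, and in 573 of all 3018 (19%). Windows higher in osteoblasts had a median log2 difference of 1.22, and those higher in chondrocytes one of -1.31. No open region was counted in any trunk chondrocyte library in 38 of the former, and in any trunk osteoblast library in 44 of the latter. How many of all 3018 windows were empty in a trunk group was not computed, and such windows entered through the counts of the other groups. Counts did not vary inside either trunk group in 63 of the 520 windows and in 255 of all 3018. With so few regions per window, the pseudocount of 0.5 makes the log2 differences smaller than the change in the counts themselves.

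The window with the smallest p in favour of osteoblasts lay on chromosome 21 from 6400001 to 6500000. It held 5, 6 and 6 open regions in trunk osteoblasts and 0 in every trunk chondrocyte library, which is a difference of 3.62 ± 0.19 in log2(regions + 0.5), with its SE (limma adjusted p = 4e-07). Head osteoblasts had 7, 6 and 5 regions there and head chondrocytes 0 in all 3 libraries. A window on chromosome 2 from 37700001 to 37800000 held 3, 3 and 4 regions in the trunk osteoblast libraries and 0 in all trunk chondrocyte libraries (log2 difference 2.93 ± 0.24, limma adjusted p = 1.4e-05). In the head it held 4 regions in every osteoblast and 0 in every chondrocyte library. Both windows were open in 6 of 6 osteoblast libraries and empty in 6 of 6 chondrocyte libraries. They were chosen for their trunk difference. As windows entered by their mean over all 12 libraries, windows empty in chondrocytes passed that filter through osteoblast counts alone, head included.

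Windows on chromosome 3 from 28000001 to 28100000, with 2, 4 and 4 regions in trunk osteoblasts, and on chromosome 6 from 58600001 to 58700000, with 2, 4 and 3, were likewise empty in all 6 chondrocyte libraries. On chromosome 17 from 8400001 to 8500000, trunk osteoblasts had 2, 3 and 2 regions and trunk chondrocytes 0, while head chondrocytes had 1 in each library. The window on chromosome 18 from 48200001 to 48300000 was named for its 4 osteoblast-only regions, a choice that builds in a trunk difference. It also held 1 chondrocyte-only region. Trunk osteoblasts had 7, 7 and 5 regions there and trunk chondrocytes 3 each. The log2 difference of 0.95 ± 0.17 is given as a description. Head osteoblasts had 3, 4 and 3 there and head chondrocytes 4, 3 and 3, so the head groups overlapped.

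Among windows higher in chondrocytes, the smallest p belonged to chromosome 7 from 48700001 to 48800000. It held 1 region in every trunk osteoblast library and 8, 8 and 6 in trunk chondrocytes, which is a log2 difference of -2.37 with an SE of 0.15 (limma adjusted p = 1.8e-06). Head osteoblasts had 1 region each and head chondrocytes 7, 8 and 7. On chromosome 19 from 15300001 to 15400000 no osteoblast library of either location had a region. Trunk chondrocytes had 6, 6 and 4 there and head chondrocytes 5, 3 and 3 (trunk log2 difference -3.52 ± 0.25, limma adjusted p = 5.1e-06). Both windows separated all 6 chondrocyte from all 6 osteoblast libraries. They too were chosen for their trunk difference, and head counts were part of the entry filter.

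Chromosome 7 from 11400001 to 11500000 held 5 regions in every trunk chondrocyte and 1 in every trunk osteoblast library, and 4 of those regions were chondrocyte-only. Chromosome 6 from 4000001 to 4100000 held 6, 6 and 5 regions in trunk chondrocytes and 1 in each trunk osteoblast library. A less even window was on chromosome 18 from 46300001 to 46400000. There trunk chondrocytes had 6, 7 and 8 regions and trunk osteoblasts 2, 0 and 1, and head chondrocytes had 7 in every library. Its trunk osteoblast replicates were uneven. The window was named for its 5 chondrocyte-only regions, each by rule in every trunk chondrocyte and no trunk osteoblast library. That the trunk groups did not overlap was thus largely set by the choice.

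**Figure D3:**
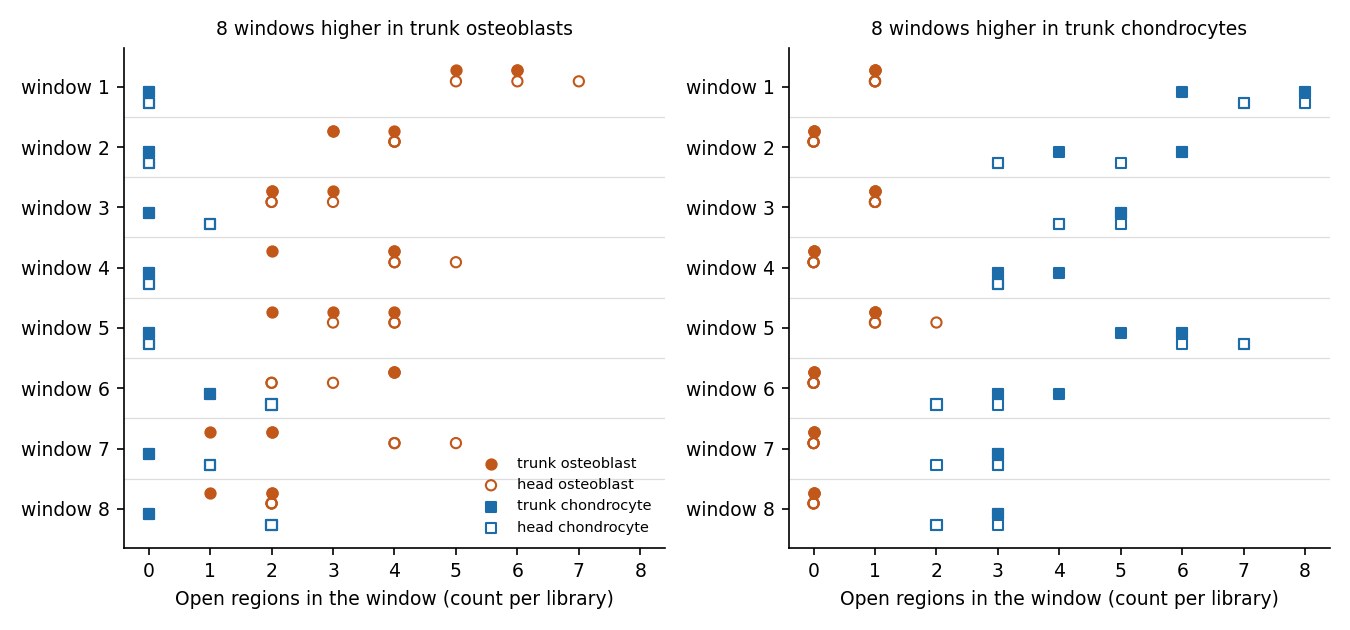
Open regions per library in the 8 windows of 100 kb with the smallest p in each direction, in order of p from top to bottom, with filled symbols for trunk and open symbols for head libraries, orange circles for osteoblasts and blue squares for chondrocytes. Libraries with the same count lie on top of each other. In window 1 on the left trunk osteoblasts lie at 5 and 6 and all chondrocytes at 0, and in window 1 on the right trunk chondrocytes lie between 6 and 8 and all osteoblasts at 1.

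The head contrast of osteoblasts with chondrocytes, sorted on the same transgenes in other libraries, ran mostly the same way. Head and trunk osteoblasts need not be alike, as the labels call those of the trunk non-classical. Windows had entered by their mean over all 12 libraries, so the head counts helped to choose them. A window empty in 1 cell type passed that filter more easily where the other cell type was high in both locations. Part of the agreement below can come from this filter, and how much was not tested. In the head 619 of the 3018 windows (20.5%) differed between osteoblasts and chondrocytes. Of the 520 windows that differed in the trunk, 285 (54.8%) also differed in the head in the same direction, which is 46% of the windows called in the head, and 6 differed in the opposite direction. The sign was the same in 475 of the 520, and the head difference was 0 in 20. How many of all 3018 windows had the same sign was not computed, so 475 cannot be set against a background. Over all 3018 windows the trunk and head differences had a Pearson r of 0.696 and a Spearman rho of 0.618, given as a description, since windows are not independent and both differences come from one model.

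**Figure D4:**
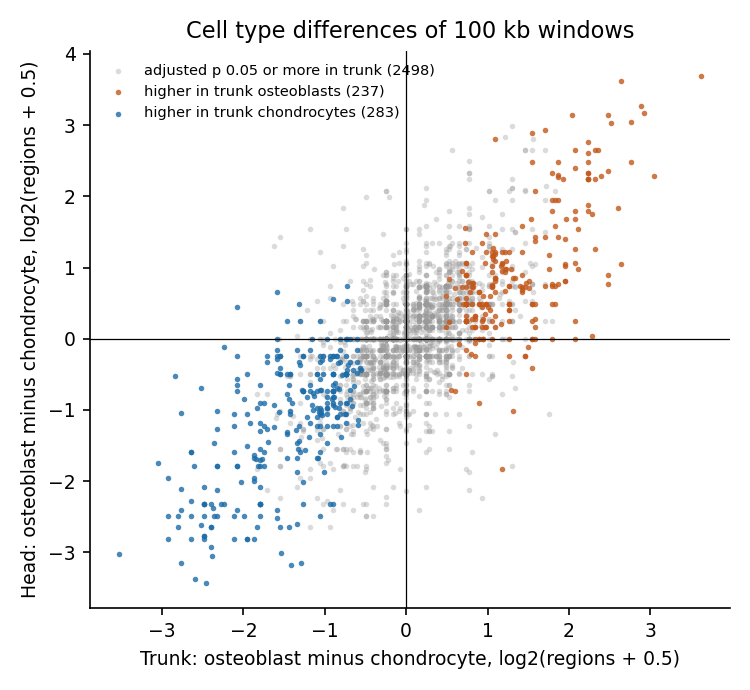
Difference between osteoblasts and chondrocytes in log2(regions + 0.5) in the trunk (horizontal axis) and in the head (vertical axis), with 1 point per 100 kb window and colour for windows past the limma threshold in the trunk. Of the 520 coloured windows (237 orange, 283 blue) 475 have the same sign on both axes, and Pearson's r over the 3018 windows is 0.696. The same-sign share of all windows was not computed.

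A test of whether the cell type difference itself differed between trunk and head called 12 of 3018 windows (0.398%; limma adjusted p under the same threshold), with 315 at an unadjusted p below 0.05. In 9 of the 12 the excess of osteoblasts was larger in the trunk. The smallest p belonged to chromosome 9 from 21000001 to 21100000, a window picked out after its values were seen. Trunk osteoblasts had 4, 3 and 2 regions there and trunk chondrocytes 1 each, whereas head osteoblasts had 0 and head chondrocytes 1, 1 and 2. The difference of differences was 3.01 on the log2 scale (limma adjusted p = 0.026). With constant windows kept, 85 of 3503 windows passed this test, of which 35 were constant windows.

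Regions open in all 6 trunk libraries also differed in strength between the cell types. On the log2 of the rank, where a lower value is a stronger site, 241 of the 3368 shared regions (7.16%) differed in a limma fit of the 6 trunk libraries at an adjusted p of 0.05. Of these, 133 (3.95%) ranked higher in osteoblasts and 108 (3.21%) higher in chondrocytes. Shared regions as a whole ranked higher in osteoblast lists, with a median log2 rank difference of -0.3 over all 3368. When ranks were renumbered among the shared regions alone, which takes that shift out, 150 regions passed, 40 stronger in osteoblasts and 110 in chondrocytes. The balance between directions therefore depends on the scaling, while the 10 regions named here passed under both. The 6 libraries separated by cell type without overlap in 238 of the 241 regions and in 994 of all 3368 (29.5%).

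The shared region with the smallest p lay on chromosome 15, 29242116 to 29242178. Its ranks were 49, 65 and 89 in trunk osteoblasts and 2266, 2704 and 3229 in trunk chondrocytes, a log2 rank difference of -5.36 ± 0.57 (SE; limma adjusted p = 6.5e-05). It was thus among the strongest 100 sites of each trunk osteoblast list. Head osteoblasts ranked it at 1067, 691 and 1193, and of the head chondrocyte libraries only replicate 1 held it, at rank 7364. Chromosome 10, 43029016 to 43029173, ranked 199, 660 and 529 in trunk osteoblasts and 8142, 7550 and 7859 in trunk chondrocytes, close to the end of the reduced lists. Head osteoblasts ranked it at 603, 306 and 356, and no head chondrocyte library held it at 8407 summits. Another such region, on chromosome 1, 25157773 to 25157834, had ranks of 196, 283 and 519 against 4769, 4647 and 3941, and the head chondrocyte libraries ranked it at 2372, 1908 and 2125.

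In the other direction, chromosome 20, 37553109 to 37553227, ranked 29, 48 and 311 in trunk chondrocytes and 4606, 3808 and 6152 in trunk osteoblasts. Its log2 rank difference of 5.98 ± 0.72 (SE; limma adjusted p = 0.00011) was the largest of the 241. Head chondrocytes ranked it at 25, 76 and 329. Chromosome 25, 31011106 to 31011152, had ranks of 131, 297 and 358 in trunk chondrocytes and of 5722, 5506 and 5105 in trunk osteoblasts, and in the head 194, 213 and 344 against 6486, 5460 and 6556. On chromosome 22, 33169768 to 33169817, trunk chondrocyte ranks were 362, 392 and 518 and trunk osteoblast ranks 6692, 4520 and 4132. That region was weaker in head chondrocytes, at ranks 2225, 2670 and 5197, and in no head osteoblast list at this length.

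The other named shared regions had smaller but replicated differences. On chromosome 14, 25959572 to 25959611, trunk osteoblast ranks of 851, 835 and 835 stood against chondrocyte ranks of 5581, 6145 and 3897 (log2 rank difference -2.61 ± 0.43, limma adjusted p = 0.0016). On chromosome 20, 147621 to 147806, they were 1181, 812 and 750 against 7261, 5384 and 7389. In both, all 3 head osteoblast ranks were above all 3 head chondrocyte ranks. Stronger in chondrocytes was chromosome 16, 39085127 to 39085283, with ranks of 351, 322 and 634 in trunk chondrocytes and of 4209, 4639 and 5260 in trunk osteoblasts, and head chondrocyte ranks of 226, 236 and 508. Chromosome 7, 27535185 to 27535274, had ranks of 1030, 563 and 992 against 7933, 8280 and 5520.

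**Figure D5:**
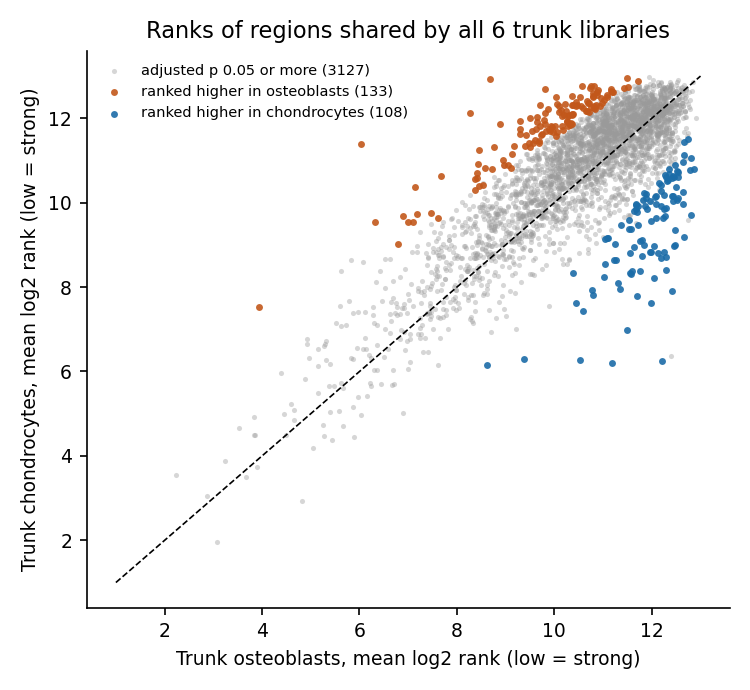
Mean log2 rank of the 3368 regions held by all 6 trunk libraries, in trunk osteoblasts (horizontal axis) and trunk chondrocytes (vertical axis), where low values are strong sites and the dashed line marks equal ranks. The 133 orange regions above the line ranked higher in osteoblasts and the 108 blue regions below it higher in chondrocytes.

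Head libraries ordered these regions the same way. Of the 133 regions stronger in trunk osteoblasts, 111 were held by all 6 head libraries, and in 78 of those every head osteoblast library ranked the region above every head chondrocyte library. The reverse occurred in 0. Of the 108 regions stronger in trunk chondrocytes, 59 were held by all 6 head libraries, of which 57 had every head chondrocyte rank above every head osteoblast rank and 0 the reverse. Among all 2891 shared regions held by the 6 head libraries, the head groups separated in favour of osteoblasts in 888 (30.7%) and of chondrocytes in 344 (11.9%). Median log2 rank differences in the head were -1.26 for the first set and 2.57 for the second, against -0.39 for all 2891.

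The count of 241 shared regions moved with every library left out. It was 79, 95 and 118 without trunk osteoblast replicates 1 to 3, 143 and 94 without trunk chondrocyte replicates 1 and 2, and 571 without trunk chondrocyte replicate 3. Each of these fits has 3 residual degrees of freedom in place of 4. The regions shared by the libraries kept also change, as 522 regions lacked a summit of trunk chondrocyte replicate 3 alone. A change in the count can therefore not be told apart from a change in the regions tested.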

How the data were processed

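ATAC-seq libraries of sorted zebrafish cells were analysed from lists of MACS2 summits, each list belonging to a single library. Tools named in the submitters' processing notes are MACS2, deepTools, bedtools, SAMtools, Bowtie2 and fastp, with the build danRer11 (GRCz11). The sources used here give neither their versions nor their settings. Each deposited row has a position of 1 base and the −log10 score that the authors' peak caller gave it, and whether it is of p or q is not stated. Scores grow with depth and were used only to rank summits within a list. Per the labels' protocols, enzyme amount and transposition time were adjusted to cell number, so they can vary with library. Bases are counted from 1. Peak names in some lists carry another replicate number than the titles, and titles were followed.

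The strongest 8407 summits of each library were kept and chained within 250 bp. A head library held a region when it had a summit within 250 bp of it. Window counts (100 kb, by the middle of regions chained over all 12 libraries, pseudocount 0.5) and log2 ranks of shared regions were fitted with limma 3.58.1 in R 4.3.3, using its trend and robust options and a Benjamini-Hochberg threshold of 0.05, leaving 8 and 4 residual degrees of freedom. P-values rest on the spread between libraries named biological replicates. In the limma fits that spread is pooled over all groups of a fit and moderated across windows or regions. Groups with the same count in every library add no spread of their own. The p of such windows therefore depends on the other groups and on the moderation. Jaccard indices and head shares were tested by exact permutation over libraries. The chaining of summits and the limma fits were run on simulated data, the latter with normal noise, and the permutation tests were not. No summits of different trunk libraries shared both base and score.

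Named regions were the 10 per direction with the lowest mean rank and no summit of the other trunk group within 1000 bp. Named windows were the 8 per direction with the smallest p and the 3 with the most separating regions, and named shared regions the 5 per direction with the smallest p. Most but not all of these are printed. Members, lists and rules were chosen with earlier results of these data known. Planned tests of genes and motifs need an annotation and genome of GRCz11 and were not run, so no coordinate is given a gene name. Gene tables at hand are of another assembly, GRCz12tu, and were not used.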

Additional observations from a re-analysis of the deposited data

Results flagged for a closer look

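In 2 of the named windows the difference between osteoblasts and chondrocytes itself differed between trunk and head. On chromosome 11 from 43000001 to 43100000, trunk osteoblasts had 4 open regions and trunk chondrocytes 1 in every library, while head osteoblasts had 3, 2 and 2 and head chondrocytes 2 each, a difference of differences of 1.42 (log2; limma adjusted p = 0.032). On chromosome 1 from 24000001 to 24100000, trunk osteoblasts had 2, 1 and 2 regions and trunk chondrocytes 0, while all 6 head libraries had 2, a difference of differences of 2.08 (limma adjusted p = 0.032). The trunk difference of this window turned to -0.081 (limma adjusted p = 0.863) when trunk chondrocyte replicate 3 was left out and lists of 20380 summits were used. These are differences of 1 to 3 regions per window, and their cause was not tested.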

How the results depend on the processing

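The shortest list, that of trunk chondrocyte replicate 3, sets the list length. Window and shared region counts below are of calls, and the number tested can change with the setting. Leaving out 1 library at a time gave 1036 to 1302 osteoblast-only and 1304 to 1984 chondrocyte-only regions, head differences of 43.2 to 52.1 and of -73.9 to -65.2 percentage points, 335 to 445 windows (356 to 473 with constant windows left out) and 79 to 571 shared regions. Without trunk chondrocyte replicate 3 and with lists of 20380 summits there were 2182 osteoblast-only and 3925 chondrocyte-only regions, head differences of 48.4 and -62 points, 737 windows (813 without constant ones) and 1587 shared regions. This setting, 1 of those added after seeing the data, turned the difference of the window on chromosome 1 from 24000001 to 24100000 to -0.081 (limma adjusted p = 0.863), and the cause was not tested. With lists of 4000 summits, 396 regions were osteoblast-only, 583 chondrocyte-only and 66 shared regions differed.

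When the regions themselves were chosen again on full lists, 390 were chondrocyte-only, with head differences of 38.7 and -57.4 points (the full-list shares in the results above are of the regions chosen at 8407 summits). The excess in Jaccard index was 0.0152, and with list length as a covariate 323 windows without constant ones passed. Libraries described without a loss of files gave 1488 osteoblast-only regions, a head difference of 47.5 points, a Jaccard excess of 0.17 (exact permutation p = 0.333, the smallest possible there), 296 windows without constant ones and 61 shared regions. No filter on low values gave 878 windows (803 without constant ones). Renumbered ranks gave 150 shared regions.

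Same-numbered trunk libraries did not deviate together (r of 0.0058, -0.104 and -0.178 over windows, 0.044, -0.241 and -0.327 over ranks of shared regions). Deviations inside a group of 3 libraries depend on each other, so these values cannot decide whether same-numbered libraries were collected together. Trunk osteoblast replicate 3 and trunk chondrocyte replicate 2, the longest lists, did deviate together (r of 0.214 over windows and 0.516 over ranks). They had 1699 summits at the same base, more than the other 14 pairs of trunk libraries, but longer lists by themselves give more such summits. The shorter list of this pair held 55274 summits. Trunk osteoblast replicates 2 and 3 had 832 at the same base, with a shorter list of 24798. Shares of list length were not compared. What these libraries share was not tested. A replicate block gave 413 windows (488 without constant ones) and 95 shared regions, and a block on the number in the peak names 255 and 302 windows. The named shared regions kept direction and call in every alternative run that gave a value for them. There were 65 such values for regions ranked higher in osteoblasts and 64 for those ranked higher in chondrocytes. Not every run gave a value for each region, and with shorter lists a region ranked beyond the list end could not be tested. Among the named windows, 101 values each of the 8 higher in osteoblasts and the 8 higher in chondrocytes also kept direction and call. The call was lost in 5 and 6 values, 4 of each with full lists and the list length covariate, and 1 reversed. Tests of genes and motifs and their alternatives were not run.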
